A study of Mus musculus with 8 samples.

Results

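Among the active distal chromatin of Beta-TC6 cells, 284 H3K27ac intervals were narrower than 5000 bp, had their centre more than 1 kb from the end of any RefSeq protein-coding gene and overlapped 2 or more PDX1 peaks. They are called multi-PDX1 intervals here. They made up 0.955% of the 29735 H3K27ac intervals and 1.28% of the 22236 that met the same limits of width and distance (narrow distal intervals). Of the other narrow distal intervals, 5845 overlapped 1 PDX1 peak and 16107 overlapped none, and these served as the comparison. The intervals were chosen by their measured width and by their count of PDX1 peaks, so their PDX1 and H3K27ac values are given as descriptions without a test. Tests were made only on H3K4me2, H2A.Z, CLOCK and BMAL1, which the choice did not use, and on lying inside a gene. The choice used the distance from gene ends, by the same limit in all narrow distal intervals, but not the side on which the interval lay.

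Beta-TC6 is a mouse insulinoma cell line that serves as a model of the pancreatic beta cell; it is a tumour-derived line, and no treatment, genotype or time course separates its libraries. Sequencing of immunoprecipitated chromatin (ChIP-seq) gave 1 library for each of 6 targets, with 2 input libraries used by the authors for peak calling. Libraries held 12892080 to 26678241 tags. With 1 library per target, intervals are counted and are not replicates, and every p-value compares these libraries only.

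PDX1 is a homeodomain transcription factor needed for pancreas formation and for the identity of the mature beta cell, where it binds AT-rich elements with a TAAT core at the insulin gene and many others. H3K27ac marks active enhancers and promoters, and H3K4me2 marks promoters and enhancers that are active or primed. H2A.Z is a histone variant found at starts of transcription and at regulatory sites. CLOCK and BMAL1 are the basic helix-loop-helix partners that drive the circadian clock from E-box elements, and in beta cells the clock is known to control genes of insulin secretion.

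No mm10 genome was used here, so sequence could be read only where a PDX1 peak of a multi-PDX1 interval fell in a RefSeq promoter window (GRCm38.p6, 250 bases before to 50 after an annotated start). Such windows were touched by 16 of the 274 multi-PDX1 intervals on chromosomes with windows (5.84%), 226 of 5627 intervals with 1 PDX1 peak (4.02%) and 1281 of 15592 with none (8.22%). PDX1 peaks of multi-PDX1 intervals reached into 6 such windows. In that of the non-coding gene Gm30583 they shared 10 bases, which hold no TAAT and are not printed. The 5 longer stretches are printed as the bases of PDX1 peaks that could be read, which need not be the bases bound. Capitals mark TAAT on either strand (so also ATTA), including overlapping copies.
Rptoros: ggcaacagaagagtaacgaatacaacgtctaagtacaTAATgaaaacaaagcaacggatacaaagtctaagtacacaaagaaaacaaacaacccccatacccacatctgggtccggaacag
Gm52192: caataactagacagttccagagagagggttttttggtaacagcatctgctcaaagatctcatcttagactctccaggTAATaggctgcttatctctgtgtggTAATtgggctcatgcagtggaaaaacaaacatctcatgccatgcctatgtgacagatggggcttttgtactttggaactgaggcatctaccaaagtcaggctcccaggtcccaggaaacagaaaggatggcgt
Gm32624: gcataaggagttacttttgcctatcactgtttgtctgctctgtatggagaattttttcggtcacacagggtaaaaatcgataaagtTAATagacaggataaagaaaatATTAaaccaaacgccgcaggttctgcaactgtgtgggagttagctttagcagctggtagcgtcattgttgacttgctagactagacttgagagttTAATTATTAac
Gm42322: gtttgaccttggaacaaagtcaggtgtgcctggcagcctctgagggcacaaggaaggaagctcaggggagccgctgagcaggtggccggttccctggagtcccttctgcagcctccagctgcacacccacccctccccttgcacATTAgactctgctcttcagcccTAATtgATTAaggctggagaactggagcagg
Clasp2: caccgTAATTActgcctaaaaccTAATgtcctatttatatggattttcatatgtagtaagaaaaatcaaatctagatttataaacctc

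The stretch of Rptoros, a long non-coding RNA gene, covers chr11:119834495-119834615 on the minus strand of mm10. It holds 1 TAAT in 121 bases, and the PDX1 peak over it scored 17. The stretch of the non-coding gene Gm52192 covers chr15:3215233-3215467 on the plus strand. It is a whole PDX1 peak of 235 bases, with a score of 25, and holds 2 TAAT. That of the non-coding gene Gm32624 covers chr16:86816659-86816872 on the plus strand, and its 214 bases hold 5 TAAT on the 2 strands, of which 2 make up the palindrome TAATTA. The PDX1 peak there scored 22, and its partner in the same H3K27ac interval scored 21.

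The stretch of the non-coding gene Gm42322 covers chr4:133440420-133440616 on the minus strand and holds 3 TAAT in 197 bases, of which 1 lies in a CTAATG. It belongs to an interval with PDX1 scores of 29 and 41 and a BMAL1 peak of score 14. The stretch of Clasp2, which encodes a microtubule plus-end protein, covers chr9:113812336-113812423 on the plus strand, at a start inside the gene. Its 88 bases hold 3 TAAT, with 1 TAATTA and 1 CTAATG, and the PDX1 peak is at the lowest score that the list allows, 13.

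TAAT is a common word. On either strand it occurred in 31.8% (the span used for Clasp2) to 51.8% (the span used for Gm32624) of all 32851 promoter windows, read at the same place and length. TAATTA occurred in 1.84% to 4.45% and CTAATG in 2.35% to 5.96% of those windows. The E-box CACGTG was in none of the 5 stretches, and no share of motifs over all PDX1 peaks of the multi-PDX1 intervals was computed.

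The typical multi-PDX1 interval held a pair of PDX1 peaks: 280 of the 284 had exactly 2 and 4 had 3. Together they held 572 distinct PDX1 peaks, which is 8.91% of the 6417 PDX1 peaks in narrow distal intervals and 1.64% of all 34883. All PDX1 peaks lay wholly inside the H3K27ac interval in 228 of the 284. Neighbouring PDX1 centres were 445 to 3248 bp apart, with a median of 923.5 bp. The file header gives a minimum distance of 470 bp between peaks, and 1 of the 288 spacings was below it. The header also gives a filter of 4 times the density of the surrounding 10 kb, so closer sites and weaker neighbours of strong ones could be missing from the list. Of the 288 spacings, 166 were under 1000 bp (57.6%) and 19 were 2000 bp or more (6.60%).

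The 572 PDX1 peaks had a median score of 29 (the authors' peak score), with quartiles of 21 and 38 and a range of 13 to 129. The PDX1 peaks of intervals with 1 peak had a median of 26, quartiles of 19 and 40 and a highest score of 395, and all PDX1 peaks of the list had a median of 19. The highest-scoring PDX1 peaks of the list were thus not in multi-PDX1 intervals. Relative to the surrounding 10 kb, the median enrichment was 6.66-fold for the peaks of multi-PDX1 intervals, 8.68-fold for those of intervals with 1 peak and 7.88-fold for all PDX1 peaks. In a multi-PDX1 interval the surrounding 10 kb holds a neighbouring peak by construction.

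The PDX1 scores within an interval are described here without reference pairs of peaks. Weaker neighbours of strong peaks could be missing from the list, so uneven pairs could be undercounted. The higher score had a median of 34 and the lower a median of 24, and the ratio of higher to lower had a median of 1.38 and reached 3.42. Both or all PDX1 peaks scored 20 or more in 194 intervals (68.3%), while in 25 (8.80%) the lower score was 13 or 14, next to the threshold of the list. A PDX1 peak of 50 or more was present in 51 intervals.

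**Figure D1:**
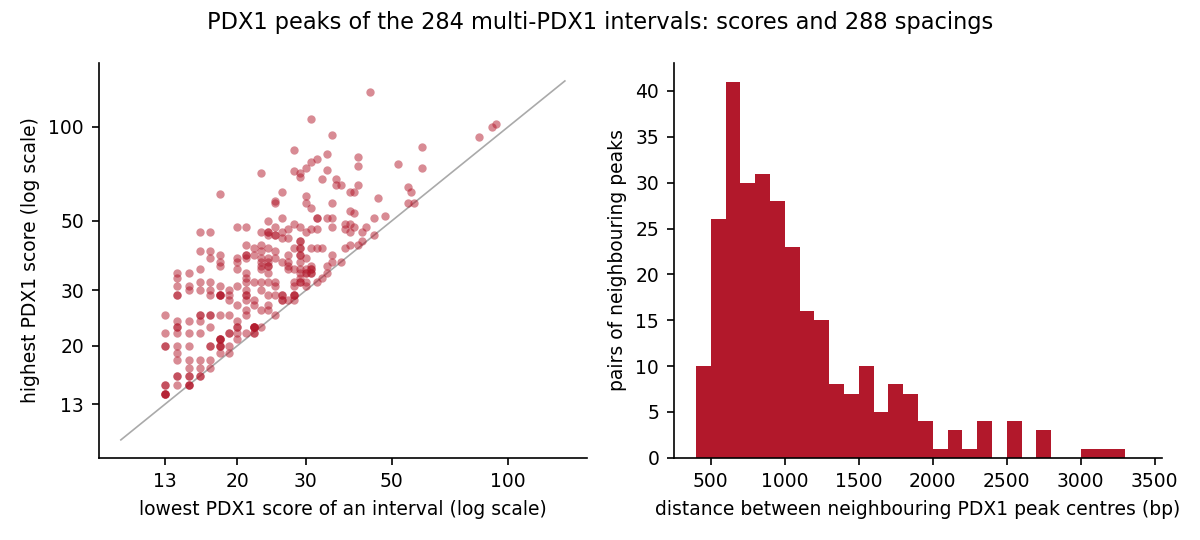
PDX1 peaks of the 284 multi-PDX1 intervals. Left: each point is an interval, with its lowest PDX1 score on the x axis and its highest on the y axis (log scales; the line marks equal scores). Right: number of neighbouring peak pairs by the distance between their centres in bp, in classes of 100 bp. The median ratio of highest to lowest score is 1.38, with no reference pairs drawn, and 166 of 288 spacings are under 1000 bp.

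The H3K27ac intervals themselves were wide and strong for their class. Their median width was 2682.5 bp, against 1596 bp with 1 PDX1 peak and 788 bp with none. They held a median of 175.7 normalized H3K27ac tags, against 68.5 with 1 PDX1 peak and 22.3 with none. Per kb of interval these were 62.4, 42.9 and 26.9 tags in the same order, and the authors' fold over input had medians of 9.06, 7.35 and 6.30. By width, the share of multi-PDX1 intervals was 0.0636% among narrow distal intervals of 500 to 999 bp, 2.79% among those of 2000 to 2498 bp and 11.2% among those of 4504 to 4984 bp. Input tags per kb also differed, with medians of 9.35, 8.29 and 6.03, and their part in the results below was not tested.

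The intervals with the most PDX1 peaks, and then those with the highest summed PDX1 scores, were described by a fixed rule. The highest sum, 235, belonged to an interval at chr16:28760345-28763401, outside genes and 8630 bp from an end of Fgf12, which encodes a fibroblast growth factor homologue that acts inside the cell on sodium channels. Its 3 PDX1 peaks scored 129, 44 and 62 from left to right, all inside 1 H3K4me2 interval. An interval at chr14:22649729-22652359 inside Lrmda, a gene of melanocyte differentiation, had 3 peaks of 41, 31 and 35. These lay closer together, with neighbouring centres 591 bp apart at the nearest.

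The other intervals with 3 peaks were lower. That at chr10:16750510-16752774 had PDX1 scores of 26, 25 and 29 and a CLOCK peak of score 15 that touched 1 of them, and its nearest gene end, 971586 bp away, was that of Cited2, a transcriptional co-activator gene. That at chr10:94397369-94399683, inside Tmcc3, had scores of 14, 24 and 21, with H2A.Z over 2 of the peaks. Both overlapped H3K4me2.

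The pairs with the highest sums were nearly equal in height. At chr15:88360277-88363844 the scores were 93 and 102 with centres 2102 bp apart, and the H3K4me2 interval lay between the PDX1 peaks and touched neither; the nearest gene end, 238241.5 bp away, was that of Zdhhc25, of the palmitoyltransferase family. At chr5:22030073-22035042, inside Reln, which encodes the secreted glycoprotein reelin, the scores were 91 and 100. This interval held 1190.6 H3K27ac tags, yet H3K4me2 covered 15.5% of it. At chr14:106378541-106379967, with Trim52 as the nearest gene, the scores were 84 and 93, and a CLOCK peak of score 13 lay between the PDX1 peaks without touching them.

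Other pairs were less even. Inside Ttc28, a gene of a tetratricopeptide repeat protein, the scores were 60 and 86 in chr5:111054499-111058479. Inside Synpo2, which encodes an actin-binding protein, they were 31 and 106 in chr3:123232975-123234347, and a CLOCK peak of score 15 lay on the higher one. Its ratio of 3.42 was the highest of the 284. Near Fra10ac1 the scores were 74 and 60, and the interval at chr19:38230551-38234370 had 23.39-fold H3K27ac over input.

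By summed score alone, 3 more intervals joined these. The scores were 94 and 35 at chr6:16606159-16608880, with Tfec, a factor of the MITF family, as the nearest gene. Inside Sgcd, the delta-sarcoglycan gene, they were 52 and 76 at chr11:47247844-47251835. They were 41 and 80 at chr19:15835924-15838750, 67786 bp from an end of Psat1, a gene of serine synthesis. Of these 13 intervals, chosen by count or summed score of PDX1 peaks, all overlapped H3K4me2, 3 overlapped CLOCK and none overlapped BMAL1. Over all 284 the shares were 90.1%, 5.63% and 4.58%, and the 13 were not tested against them.

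**Figure D2:**
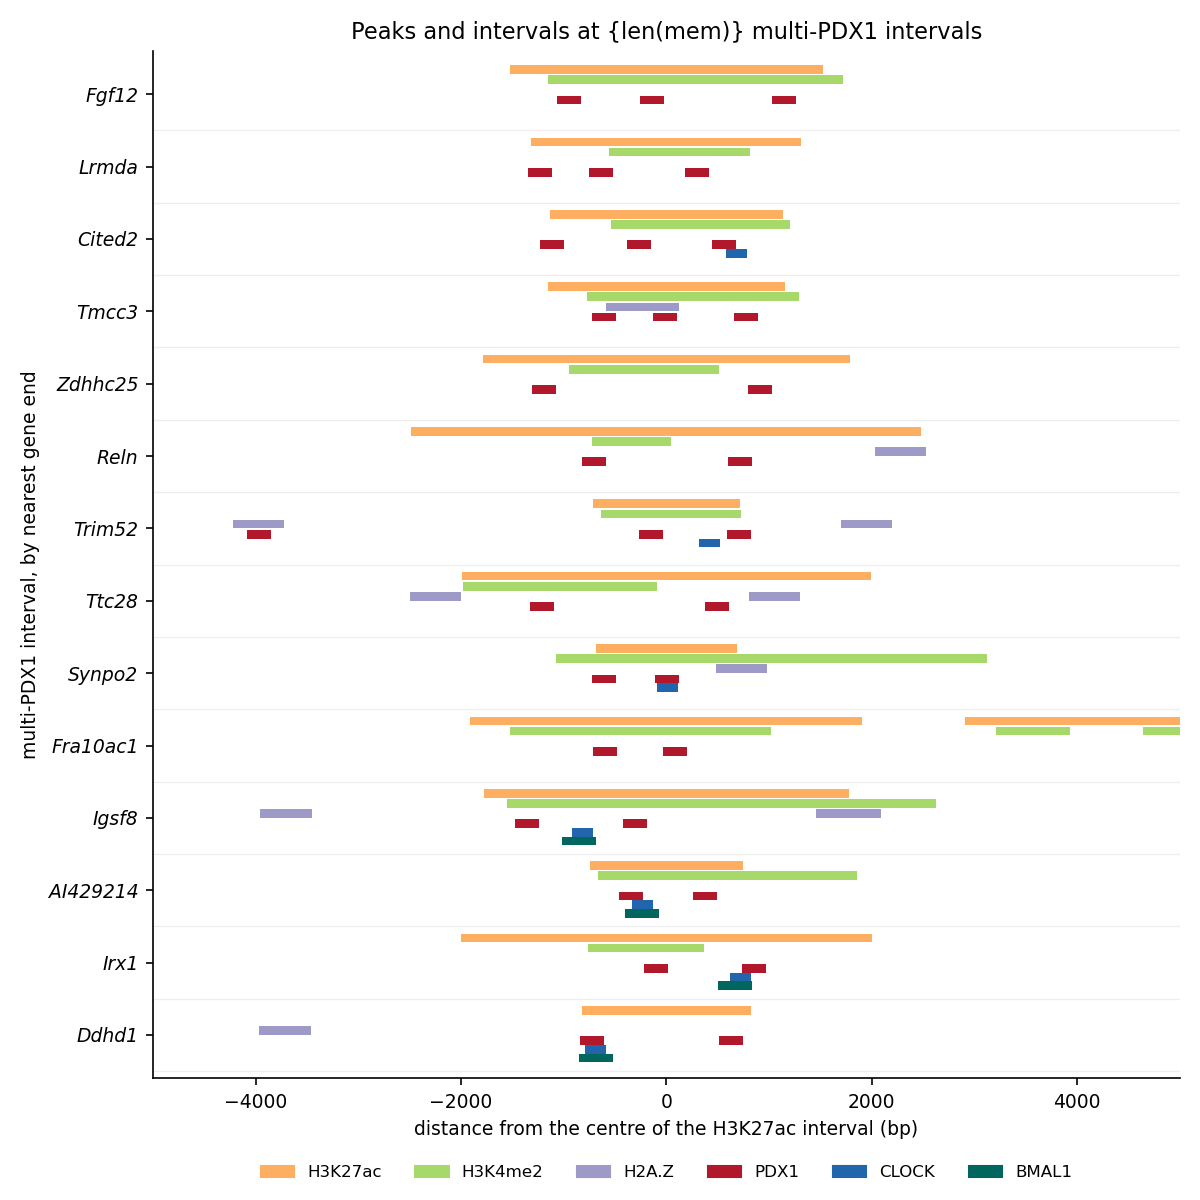
Map of 14 multi-PDX1 intervals, the 10 with most PDX1 peaks (ties by summed score) and the 4 that overlap both CLOCK and BMAL1, named by the gene with the nearest end. The x axis is the distance in bp from the centre of the H3K27ac interval, and bars are peaks or intervals of each target drawn to scale, cut at the edges of the plot. PDX1 peaks stand apart along the H3K27ac bar, and some run past its edge; 13 of the 14 have an H3K4me2 interval, and Ddhd1 has none.

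The width limit fell within a continuous range. Just under 5000 bp were intervals of 4970 bp near Ppm1b, a phosphatase gene, with PDX1 scores of 46 and 16, of 4969 bp in Reln, and of 4953 bp inside Asic2, an acid-sensing channel gene, with scores of 77 and 31. The last had the most H3K27ac tags of all 284, 1468.3. Just over the limit were intervals of 5024 bp in Abcb11, of 5066 bp in Ankrd55 and of 5115 bp near Fut10, with 2, 3 and 2 PDX1 peaks. In all, 100 of the 649 distal intervals of 5000 bp or more held 2 or more PDX1 peaks, and of the 6783 narrow intervals near gene ends 9 did.

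H3K4me2 overlapped most multi-PDX1 intervals: 256 of 284, or 90.1% (Wilson 95% interval 86.1 to 93.1%). It overlapped 4397 of 5845 intervals with 1 PDX1 peak (75.2%) and 7907 of 16107 with none (49.1%), and 56.5% of all narrow distal intervals. The odds ratio was 3.01 against intervals with 1 PDX1 peak (95% interval 2.03 to 4.47, two-sided Fisher exact test, Benjamini-Hochberg adjusted p = 2.96e-09 over 10 comparisons). Against intervals with none it was 9.48 (6.41 to 14.02, adjusted p = 1.96e-47, Fisher exact test). Within width quintiles the odds ratio was 2.27 against intervals with 1 PDX1 peak (1.53 to 3.39) and 3.51 against those with none (2.36 to 5.22), and both passed the test. It did not pass against intervals with 1 peak in the upper 50% of the PDX1 and H3K4me2 lists by score (odds ratio 1.28, adjusted p = 0.246, Fisher exact test), nor against either in peaks at least 8 times the input (0.769, adjusted p = 0.575, with 1 peak; 1.30, adjusted p = 0.566, with none).

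H3K4me2 and the PDX1 peaks shared much of the interval, but not all of it. A multi-PDX1 interval most often held 1 H3K4me2 interval (232), while 23 held 2, 1 held 3 or more and 28 held none. H3K4me2 covered a median of 59.4% of the H3K27ac interval. All PDX1 peaks were in H3K4me2 in 165 intervals (58.1%), some but not all in 76 (26.8%), and none in 15 (5.28%) that had H3K4me2 elsewhere. Counted by peak, 410 of 572 PDX1 peaks of multi-PDX1 intervals overlapped H3K4me2 (71.7%), and 4037 of 5845 PDX1 peaks of intervals with 1 (69.1%). The share of intervals with H3K4me2 thus differed by more than the share of PDX1 peaks in it, which was not tested.

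**Figure D3:**
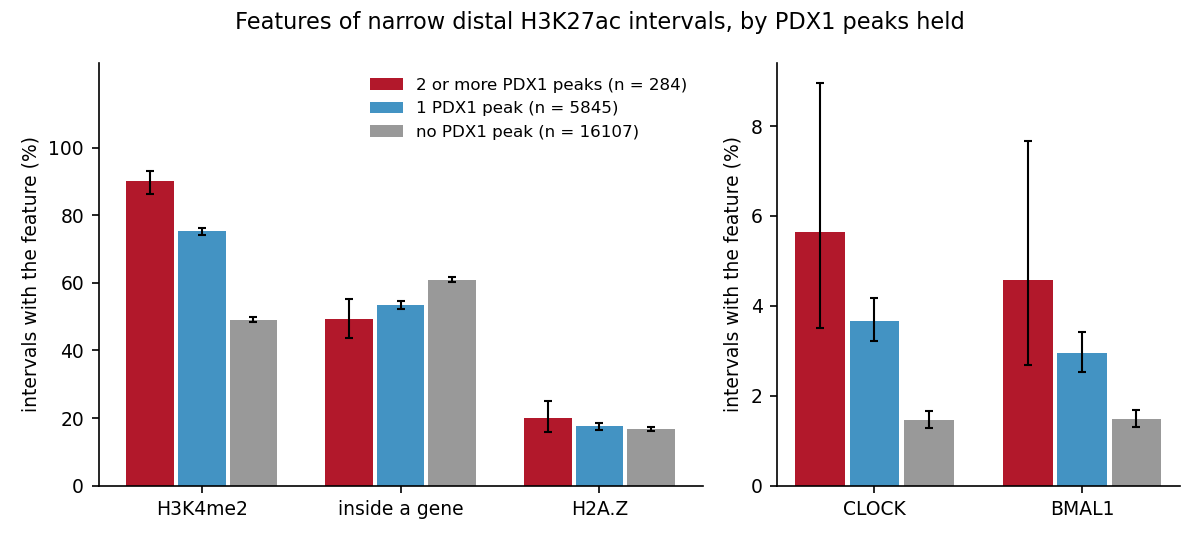
Share of narrow distal H3K27ac intervals (y axes, %) that overlapped H3K4me2, lay inside a protein-coding gene or overlapped H2A.Z (left), and that overlapped CLOCK or BMAL1 (right, with its own scale). Bars are the 284 multi-PDX1 intervals, the 5845 with 1 PDX1 peak and the 16107 with none, with Wilson 95% intervals for counting error. H3K4me2 is at 90.1%, 75.2% and 49.1%, and H2A.Z at 20.1%, 17.5% and 16.6%.

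H2A.Z overlapped 57 multi-PDX1 intervals (20.1%, 15.8 to 25.1%), 1023 with 1 PDX1 peak (17.5%) and 2679 with none (16.6%), and 16.9% of all narrow distal intervals. Neither difference passed the test (odds ratio 1.18, 0.878 to 1.59, adjusted p = 0.265 against 1 peak; 1.26, 0.939 to 1.69, adjusted p = 0.182 against none, Fisher exact test). The direction turned when intervals of like width or strength were compared. Against intervals with no PDX1 peak the odds ratio was 0.589 within width quintiles (0.437 to 0.795, Cochran-Mantel-Haenszel chi-square test, adjusted p = 0.00124), 0.558 within width classes of 500 bp (adjusted p = 0.000367) and 0.520 within quintiles of H3K27ac tags (adjusted p = 3.83e-05). By width class of 500 bp, H2A.Z was less frequent in multi-PDX1 intervals than with no PDX1 peak in 8 of 9 classes and more frequent in 1 (500 to 999 bp, 7 multi-PDX1 intervals). Against intervals with 1 PDX1 peak it was less frequent in 6 classes and more frequent in 3. Against intervals with 1 PDX1 peak the odds ratio also fell below 1 within such classes (0.798 to 0.857), without passing the test. H2A.Z touched a PDX1 peak in 23 of the 284 multi-PDX1 intervals, and in 464 of the 5845 with 1. These counts include PDX1 peaks that ran past the H3K27ac interval and met H2A.Z outside it. They are therefore not shares of the 57 and 1023 intervals that overlapped H2A.Z. A multi-PDX1 interval also had 2 or more PDX1 peaks that could be touched, against 1.

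**Figure D4:**
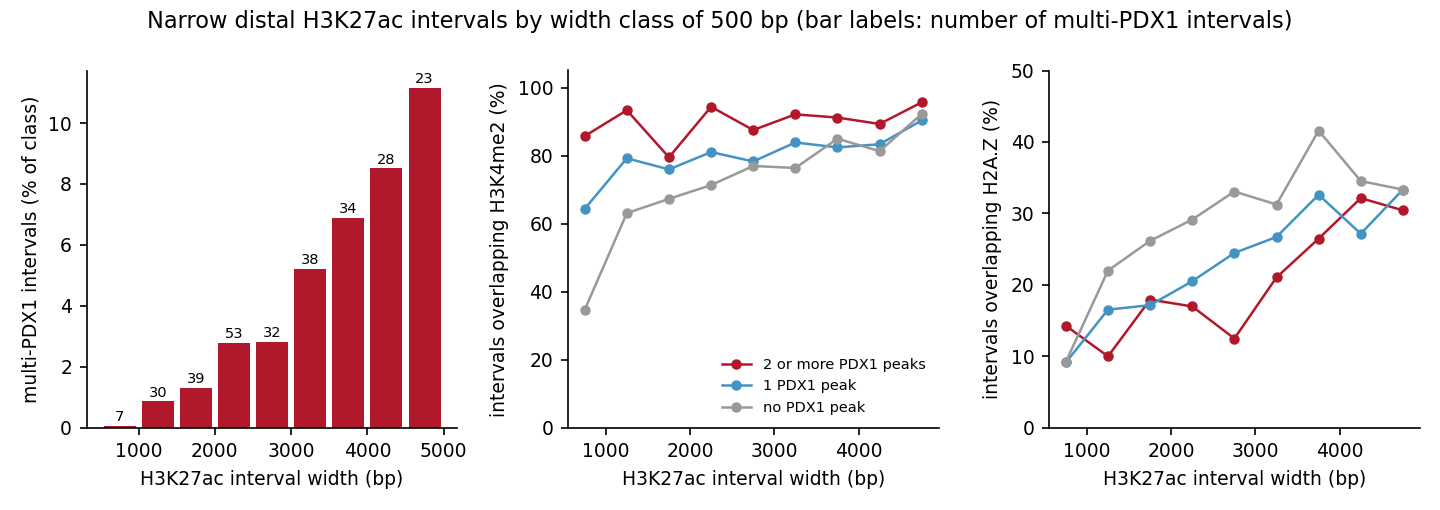
Narrow distal H3K27ac intervals in width classes of 500 bp (x axes, bp). Left: multi-PDX1 intervals as a percentage of each class, with their number above the bar; middle and right: percentage of intervals that overlap H3K4me2 and H2A.Z, for 2 or more PDX1 peaks, 1 and none. The left bars reach 11.2% in the widest class, and in the classes between 1000 and 4494 bp H2A.Z is less frequent with 2 or more PDX1 peaks than with none.

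CLOCK peaks were found in 16 multi-PDX1 intervals (5.63%, 3.497 to 8.95%), in 214 with 1 PDX1 peak (3.66%) and in 236 with none (1.47%), and in 2.1% of all narrow distal intervals. The odds ratio was 4.01 against intervals with none (2.39 to 6.76, adjusted p = 2.88e-05, Fisher exact test). Against intervals with 1 PDX1 peak it was 1.57 (0.932 to 2.65, adjusted p = 0.178, Fisher exact test). Within width quintiles the odds ratio against intervals with none was 1.46 (0.864 to 2.48, adjusted p = 0.250, chi-square test as above), so the call did not hold within these classes. They are coarse: the class of 2075 to 4984 bp holds 201 multi-PDX1 intervals. Within 500 bp classes the value was 1.34 (0.789 to 2.26). Among all intervals under 3000 bp, without classes, it was 6.12 (adjusted p = 1.86e-05, Fisher exact test). A CLOCK peak touched a PDX1 peak in 13 of the 284 multi-PDX1 intervals, and in 161 of the 5845 with 1 PDX1 peak. As for H2A.Z, contacts outside the H3K27ac interval were counted too. The 2 counts are not like for like, since a multi-PDX1 interval had 2 or more PDX1 peaks to touch.

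BMAL1 peaks were found in 13 multi-PDX1 intervals (4.58%, 2.69 to 7.67%), in 172 with 1 PDX1 peak (2.94%) and in 238 with none (1.48%), and in 1.9% of all narrow distal intervals. The odds ratio was 3.20 against intervals with none (1.81 to 5.66, adjusted p = 0.000904, Fisher exact test) and 1.58 against those with 1 (0.889 to 2.82, adjusted p = 0.189). Within width quintiles the value against intervals with none was 1.42 (0.792 to 2.53, adjusted p = 0.336, chi-square test). A BMAL1 peak touched a PDX1 peak in 8 of the 284 multi-PDX1 intervals, and in 82 of the 5845 with 1 PDX1 peak. Both limits given for the CLOCK contacts hold here too.

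Both clock factors were present in 4 of the 284 intervals (1.41%), in 31 with 1 PDX1 peak (0.530%) and in 63 with none (0.391%). These shares were not tested. The first of the 4, at chr1:172309223-172312780, lay 1365.5 bp from an end of Igsf8, an immunoglobulin superfamily gene, which is the shortest distance among the 284. Its CLOCK score of 82 and BMAL1 score of 54 stood beside PDX1 scores of 15 and 13, and both clock peaks lay between the PDX1 peaks without touching them. At the other 3, 1 PDX1 peak was touched by both clock peaks.

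At chr8:37049059-37050545, with AI429214 as the nearest gene, CLOCK scored 24, BMAL1 36 and PDX1 19 and 22. At chr13:72188664-72192669 CLOCK scored 17, BMAL1 13 and PDX1 62 and 26; the nearest gene end, 226943.5 bp away, was that of Irx1, an Iroquois homeobox gene expressed in alpha cells. At chr14:45707191-45708836, 49870.5 bp from an end of the phospholipase gene Ddhd1, CLOCK scored 14, BMAL1 18 and PDX1 30 and 17, with no H3K4me2. PDX1 and clock scores come from libraries of different depth and were not compared in size.

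**Figure D5:**
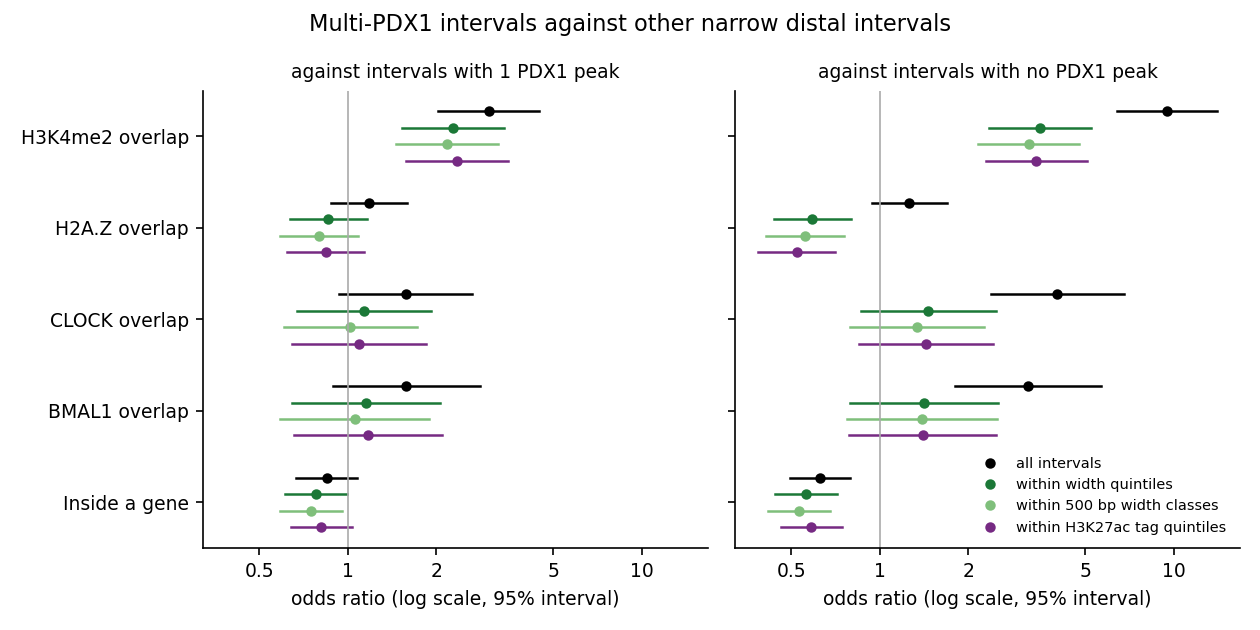
Odds ratios (points, log scale) with 95% intervals (lines) for 5 features of multi-PDX1 intervals, against intervals with 1 PDX1 peak (left) and with none (right). Black is over all narrow distal intervals, and colours are Mantel-Haenszel values within width quintiles, width classes of 500 bp and quintiles of H3K27ac tags. H3K4me2 stays above 1 in every setting drawn, H2A.Z crosses to below 1 within classes, and CLOCK and BMAL1 against none move from 4.01 and 3.20 to below 1.5.

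Multi-PDX1 intervals lay inside genes less often than intervals with no PDX1 peak, and farther from gene ends, a distance given as a description. Their centres were a median of 64950 bp from the nearest protein-coding gene end, against 45245.5 bp with 1 PDX1 peak and 24038 bp with none. More than 100 kb away were 98 of them (34.5%), 29.8% of those with 1 PDX1 peak and 18.4% of those with none. The centre was inside a protein-coding gene in 140 (49.3%), in 53.4% with 1 PDX1 peak and in 60.9% with none, and in 58.8% of all narrow distal intervals. The odds ratio for lying inside a gene was 0.625 against intervals with none (0.494 to 0.790, adjusted p = 0.000265, Fisher exact test) and 0.848 against those with 1 (0.668 to 1.08, adjusted p = 0.201). The value against those with 1 was 0.750 within width classes of 500 bp, where it passed the test (adjusted p = 0.0393, chi-square test). Exons, introns and UTRs were not determined, since the gene table used gives gene spans only.

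Of the 284 multi-PDX1 intervals, 8 (2.82%) had another within 50 kb, centre to centre, and no reference share was computed. Another H3K27ac interval lay within the distance commonly used to stitch neighbouring enhancers in 151 (53.2%), against 52.6% with 1 PDX1 peak and 58.9% with none. By nearest gene, 11 genes had 2 each and no gene had more: Atrnl1, Cacna2d3, Fam155a, L3mbtl4, Lrmda, Nmur2, Ptprc, Rapgef4, Rere, Selenop and Tmtc2. Inside Cacna2d3, which encodes an auxiliary subunit of voltage-gated calcium channels, the PDX1 scores were 45 and 45 at chr14:29464527-29465960 and 82 and 34 at chr14:29560777-29565281. Nmur2, a neuromedin U receptor gene, had pairs of 39 and 22 and of 57 and 57, both outside the gene. Selenop, which encodes a selenium transport protein, had pairs of 13 and 25, at the start of Gm52192 shown above, and of 31 and 34.

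Genes were linked to an interval where one of their ends was the nearest, within 50 kb; this held for 123 intervals and 123 of 21883 protein-coding genes, or 0.562%. Of the 251 genes on 11 lists of beta-cell and clock biology, 6 were among them. Of 46 genes of vesicle exocytosis, 2 had a multi-PDX1 interval, Syt1 and Syt7, calcium sensors of vesicle fusion. The interval at chr10:108482704-108487074, 12761 bp from an end of Syt1, had PDX1 scores of 46 and 24, 809.4 H3K27ac tags and a BMAL1 peak of score 13 on a PDX1 peak. That inside Syt7, at chr19:10393236-10395884, had PDX1 scores of 29 and 14 and 163.8 H3K27ac tags.

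Of 25 genes of insulin processing and granules, 1 had a multi-PDX1 interval, Sytl4, which encodes the granule protein granuphilin, with PDX1 scores of 23 and 71 at chrX:133951887-133956603. Of 25 genes of glucose sensing and excitability it was Rapgef4, the cAMP sensor EPAC2 that potentiates insulin secretion. Rapgef4 held 2 such intervals within its span, with scores of 17 and 32 at chr2:71980926-71984590, 1543 bp from its end, and of 22 and 22 at chr2:72091217-72095253, 112020 bp from its end. Of 50 genes at diabetes loci it was Ide, the insulin-degrading enzyme, with scores of 37 and 29 that stood 2120 bp apart at chr19:37261485-37265523. Of 16 acinar and duct genes it was the keratin gene Krt7, with scores of 21 and 38 at chr15:101423525-101427805, neither in H3K4me2.

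None of the 30 beta-cell transcription factors, 8 beta-cell markers, 26 core clock genes, 12 alpha, delta and PP cell genes, 21 PDX1 partners and chromatin regulators and 16 genes kept off in beta cells had one by this measure. At 0.562% of all genes, a list of this size would hold few or none, so these counts of 0 say little about the lists. Narrow distal intervals with 1 PDX1 peak, a far larger class, were linked to 11.0% of all protein-coding genes. They were linked to 16 of the 30 beta-cell transcription factors, among them Foxa2, Neurod1, Nkx6-1, Pax6 and Rfx6. On the other lists they reached 1 of the 8 beta-cell markers, 5 of the 26 core clock genes, 4 of the 12 alpha, delta and PP cell genes, 5 of the 21 PDX1 partners and 1 of the 16 genes kept off in beta cells. Distal intervals of 5000 bp or more with 2 or more PDX1 peaks were linked to 3 of the 30, Foxa2, Pax6 and Pdx1 itself, and to 0.302% of all genes.

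A wider link, with the centre inside a gene or within 50 kb of any of its ends, reached 11 of the 251 list genes and 1.33% of all protein-coding genes. It added 5 genes. St18, a zinc finger factor gene on the beta-cell list, held an interval at chr1:6710275-6711627 with PDX1 scores of 31 and 34. Pbx3, a homeodomain partner gene, held one at chr2:34286392-34289761 with scores of 37 and 65. Ffar1, the fatty acid receptor GPR40, lay within 50 kb of chr7:30887055-30889945, with scores of 18 and 29 and Cd22 as the nearest gene. Ppy and Pyy, genes of the pancreatic polypeptide family, both lay within 50 kb of chr11:102129353-102131779, with scores of 49 and 39 and Nags as the nearest gene.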

How the data were processed

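Chromatin of Beta-TC6 cells was profiled with 1 ChIP-seq library for each of 6 targets and 2 inputs. The submitters' processing notes name the aligner Bowtie (1.1.1), the build mm10 and HOMER, without a version. Each library had its own HOMER findPeaks list, per the file headers, at least 4 times over input and, for the factors, 4 times over the surrounding 10 kb, with 13 or more tags for PDX1. For H2A.Z, label and file header name different inputs, and the input of the header was taken as used.

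Tag counts as deposited are a signal, which HOMER scaled to a library of 10000000 tags per the file headers. The authors' peak score was not taken to be in that unit. PDX1 scores of multi-PDX1 intervals were whole numbers, and the lowest score of the PDX1 list, 13, equals its tag threshold. The deposited fold over input and over surroundings is a ratio, and the deposited focus ratio is a fraction and entered no result.

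Peaks overlapped at 1 bp or more. Gene spans were from RefSeq (GRCm38.p6, the coordinates of mm10), without strand or exons. Shares of intervals went into Fisher exact tests (two-sided), with Woolf 95% intervals on odds ratios, adjusted over 10 comparisons, and within classes by Mantel-Haenszel odds ratios with the Cochran-Mantel-Haenszel chi-square test; Wilson intervals cover counting error only. Width quintiles had 4 classes, as the lowest edges coincide. The tests were checked on simulated data.

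The intervals, gene lists and tests were chosen with earlier results of these data known. Named were the 10 intervals with most PDX1 peaks (ties by summed score), the 10 with the highest sum, those with both clock factors, list genes (up to 4 a list), the genes with most intervals, and the 3 intervals on each side of the width limit; further examples were chosen after their values were seen. A motif search over all intervals was not run, since no mm10 genome was used here. Computation was in Python 3.11.15 (SciPy 1.17.1, NumPy 2.4.6, statsmodels 0.14.6, pandas 2.3.3; plots in matplotlib 3.10.9).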

Additional observations from a re-analysis of the deposited data

How the results depend on the processing

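Of 90 repeated comparisons (10 comparisons, 9 alternatives), 63 kept their direction and their side of the threshold; for those that did not, the cause was not tested. Odds ratios of multi-PDX1 intervals are given. H2A.Z turned below 1 against 1 PDX1 peak at 8 times the input (0.848), under 3000 bp (0.947), within width quintiles (0.857), tag quintiles (0.839) and 500 bp classes (0.798). Against none it turned below 1 in the upper 50% by score (0.946), under 3000 bp (0.944) and within the same classes (0.589, 0.520 and 0.558), and it passed the test at 1.49 when peak centres had to lie inside. H3K4me2 against 1 peak was 1.28 in the upper 50% by score and 0.769 at 8 times the input, and against none 1.30 at 8 times. CLOCK against none no longer passed at 8 times the input (4.10), within width quintiles (1.46), tag quintiles (1.44) and 500 bp classes (1.34), and against 1 peak it passed under 3000 bp (2.34). BMAL1 was 0.866 against 1 peak in the upper 50% by score. Against none BMAL1 no longer passed in the upper 50% (1.92), at 8 times the input (2.83), within width quintiles (1.42), tag quintiles (1.40) and 500 bp classes (1.39). Lying inside a gene was 0.617 against none at 8 times the input, no longer past the test, and 0.750 against 1 peak within 500 bp classes, where it passed. The number of multi-PDX1 intervals was 72 at 8 times the input, 161 under 3000 bp and 203 to 278 otherwise. List genes with such an interval numbered 11 by the wider link, against 6. The 500 bp classes and the wider link were chosen after seeing the data. No paired analysis was possible because each target had 1 library. A site below the caller's threshold has no entry, so an interval counted with 1 PDX1 peak may hold a second, weaker one.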

Other observations

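Multi-PDX1 intervals were spread over chromosomes 1 to 19 and X. Chromosome 1 had the most, 35, which was 2.03% of its narrow distal intervals. Among narrow distal intervals with any PDX1 peak, the share with 2 or more ranged from 3.04% on chromosome 5 to 6.49% on chromosome 19, with 6.42% on chromosome 1. The input density of their narrow distal intervals was 11.3 tags per kb on chromosome 5, 11.2 on chromosome 19 and 9.66 on chromosome 1. No test was made of these shares.

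An interval at chr7:62082889-62086397 with PDX1 scores of 51 and 45 holds the gene of the microRNA miR-344i, whose mature form lies 370.5 bp from the nearest PDX1 centre. The nearest protein-coding gene end, 263634 bp away, is that of Ndn, the imprinted necdin gene. No microRNA level was measured.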
